A study of Mus musculus with 6 samples.

Results

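The clustered histone genes are the replication-dependent histone genes of the Hist1 to Hist4 clusters, which were followed here in bone marrow-derived macrophages (BMDMs) 1 h after lipopolysaccharide (LPS). Members were all rows of the deposited count table whose Ensembl gene is annotated as protein-coding in GENCODE M21 and whose symbol starts with Hist1h, Hist2h, Hist3h or Hist4h, a rule that uses no measured value. It gave 67 of the 55335 genes in the table, of which 60 passed the filter on low counts that 15687 genes passed in all. By type they comprised 6 H1, 18 H2A, 18 H2B, 12 H3 and 13 H4 genes. By position, 54 belonged to Hist1 on chromosome 13 (chr13:21715763-23934851, GRCm38), 10 to Hist2 on chromosome 3 (chr3:96219865-96270132), 2 to Hist3 on chromosome 11 and 1 to Hist4 on chromosome 6.

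These genes supply the bulk of the histone protein that packages newly made DNA. The core histones H2A, H2B, H3 and H4 form the nucleosome, around which DNA is wound, while the linker histone H1 binds where DNA enters and leaves it. Unlike other mRNAs, transcripts of clustered histone genes usually end in a conserved stem-loop instead of a poly(A) tail, and their abundance normally rises and falls with DNA synthesis. Histone variants such as H3.3 and H2A.Z are encoded elsewhere by genes that make ordinary polyadenylated mRNA.

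In all, 6 libraries of total RNA were compared, 3 from control BMDMs given PBS and 3 from BMDMs given LPS, all with the C57BL/6 genotype and all after 1 h. LPS is a bacterial cell wall component that macrophages sense through Toll-like receptor 4. In both groups, marrow cells from femur and tibia had been grown for 6 d with medium conditioned by L929 cells, which supplies macrophage colony-stimulating factor. The library kit captured total RNA with strand information rather than poly(A) RNA alone. Replicates carry batch numbers 1 to 3 in both groups, and since the labels do not say that they came from separate animals or cultures, p-values measure only the spread between these libraries.

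Libraries held 37787611 to 41516330 counts. Levels are given as CPM, counts relative to library size after scaling by TMM factors, or as RPKM, which also divides by annotated exonic length and is used wherever genes are compared with each other. A count of 3, taken as the floor, corresponded to 0.063 to 0.0919 CPM. All 7 macrophage markers were measured in every library, with a summed level of 29550 to 30820 CPM under PBS and 32290 to 32640 CPM under LPS. Of the markers of other cells, the 4 dendritic genes summed to 3.15 to 4.01 CPM under PBS and 9.62 to 10.6 CPM under LPS, and the 5 neutrophil genes to 37.6 to 39.9 and 48.5 to 52.9 CPM, with Ly6g at the floor. The 5 stromal genes summed to 13.5 to 14.6 and 15.2 to 17.6 CPM, the 4 granulocyte precursor genes to 4.47 to 5.49 and 5.61 to 6.32 CPM, the 2 progenitor genes to 5.31 to 6.59 and 8.89 to 9.66 CPM, and the 3 mast cell and basophil genes to 1.08 to 1.24 and 1.65 to 1.94 CPM. The B, T and NK and erythroid lists each summed to at most 1.49 CPM. The part of other cell types in the histone values was not tested. In bulk RNA, fewer cells of a type and less RNA per cell cannot be told apart.

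Clustered histone mRNAs were lower after 1 h of LPS across all types and clusters, with 1 exception that was higher. Of the 60 tested members, 54 (90.0%) were lower at an adjusted p under 0.05 in edgeR's quasi-likelihood test with Benjamini-Hochberg adjustment, while 34.9% of all tested genes were lower. A single member, Hist1h1c, was higher (1.67%, against 32.9% of all genes), although its sign turned with library size as the only scaling. The other 5 did not pass. With the added criterion of a log2 fold change beyond 1 in size, 15 members fell (25%, against 10.4% of all genes) and 0 rose (all genes, 10.5%). No member rose past that size by DESeq2, by limma voom or at an unadjusted p under 0.05 either. In 56 of 60 members (93.3%) every LPS library lay below every PBS library, against 36.6% of all tested genes.

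The median log2 fold change of the members was -0.80, which corresponds to 57.5% of the control level, and that of all tested genes was -0.01. Scaling mattered for the size of this difference. TMM factors were near 1.15 in PBS and 0.87 in LPS libraries, and with library size alone the median of all genes shifted to -0.42 and that of the members to -1.20. On that scale 42 members fell (70.0%, against 18.9% of all genes) and all 60 were lower at an adjusted p under 0.05 in edgeR (all genes, 65.9%, with 15% higher). In the DESeq2 test 49 of the 60 were lower and 13 fell, while of the 21086 genes given an adjusted p there 22.1% were lower and 7.55% fell. Relative to the median of all genes, the members lay 0.79 lower on the log2 scale under either scaling. A change of scaling shifts all genes about alike, so this gap cannot test the choice of scaling.

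**Figure D1:**
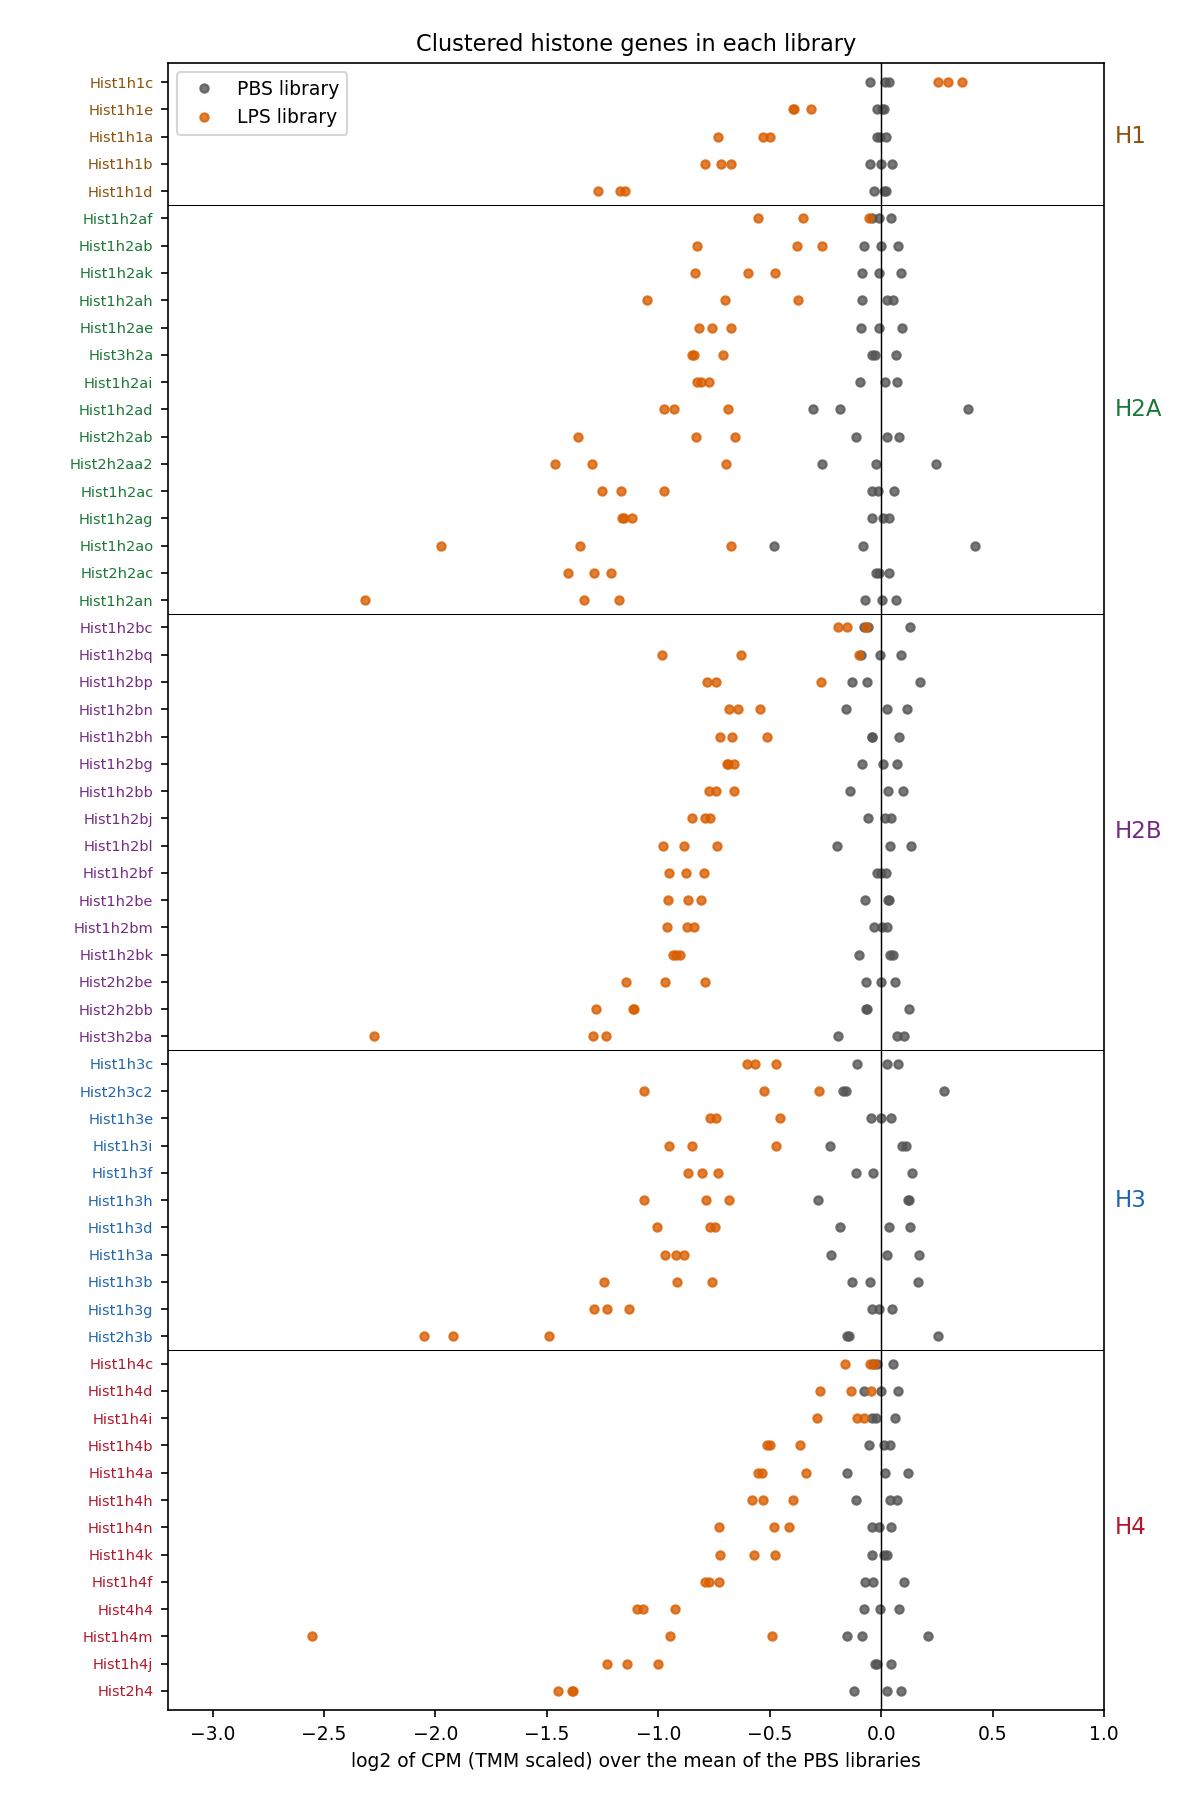
Level of each of the 60 tested clustered histone genes in each library, as log2 of TMM-scaled CPM over the mean of the 3 PBS libraries of that gene (grey, PBS; orange, LPS), grouped by histone type and ordered by difference. The LPS points lie left of the PBS points in 56 genes and right of them in Hist1h1c; the order of Hist1h1c turns with library size as the only scaling.

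The summed level of all 67 members was 1113, 1128 and 1102 CPM in PBS libraries 1, 2 and 3 and 791, 826 and 783 CPM in LPS libraries 1, 2 and 3. The mean went from 1114 ± 13.2 to 800 ± 22.7 CPM (SD, n = 3), so LPS libraries held 71.8% of the PBS sum, and the groups did not overlap. As a share of all counts, with no further scaling, histone counts made up 0.128% ± 0.00169 of a PBS library and 0.0695% ± 0.00163 of an LPS library (SD, n = 3), a ratio of 54.2%.

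Types and clusters did not fall evenly. The summed level under LPS was 91.4% of PBS for H1, 71.5% for H4, 60.8% for H2B, 57.8% for H3 and 54.0% for H2A. The composition of histone counts, which does not depend on scaling between libraries, also moved: H1 genes took 28.6 to 29.6% of histone counts in PBS and 36.2 to 37.3% in LPS libraries. Hist1h1c carried this rise, with 12.8 to 13.8% in PBS and 22.6 to 23.1% in LPS libraries, while the other 5 H1 genes together went from 15.4 to 15.8% down to 13.6 to 14.2%. H2A genes took 10.0 to 10.4% and 7.01 to 8.02%. For H4 genes the share was similar, 29.4 to 30.3% and 29.5 to 30.0%. By cluster, the sum under LPS was 75.6% of PBS for Hist1 and 41.7% for Hist2. Hist2 genes took 9.47 to 9.59% of histone counts in PBS and 5.35 to 5.76% in LPS libraries, so the groups stood apart. For Hist3 and Hist4 the LPS sums were 56.2% and 49.0% of PBS.

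**Figure D2:**
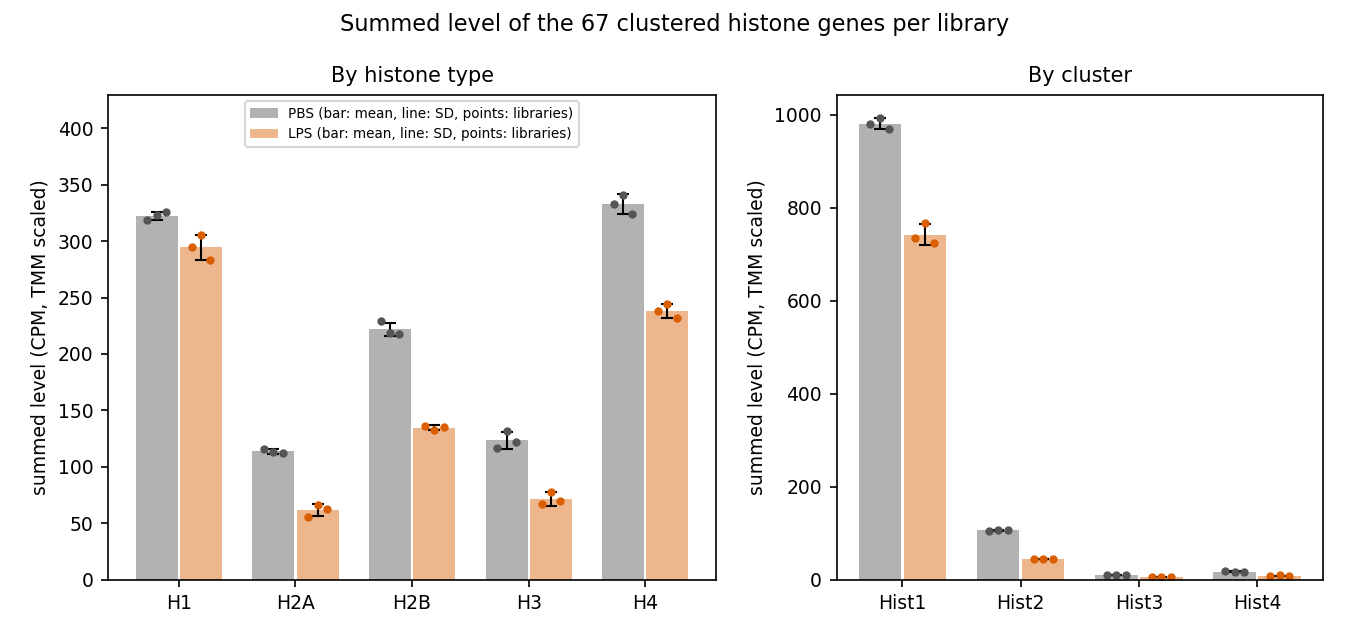
Summed TMM-scaled CPM of the 67 clustered histone genes by histone type (left) and by cluster (right), as mean (bars), SD (lines) and single libraries (points), 3 PBS and 3 LPS. The H1 sum went from 322.5 to 295 CPM and the Hist2 sum from 106 to 44.3 CPM.

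Among linker histones, the 5 tested H1 genes had a median log2 fold change of -0.58 and spread more widely than this median shows. Hist1h1c (chr13:23738808-23740367), the gene for H1.2, had a level per length of 94.9 RPKM in PBS, which together with the 94.5 RPKM of the H4 gene Hist1h4f was at the top of all members. Its level was 143, 150 and 152 CPM in the PBS libraries and 182.5, 190.4 and 176.5 CPM in the LPS libraries, so every LPS library was above every PBS library. The log2 fold change was 0.31 ± 0.0365 (SE; adjusted p = 7.4e-07, edgeR's quasi-likelihood test), but -0.10 with library size alone (adjusted p = 0.0192).

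Hist1h1d (chr13:23553262-23560686), the gene for H1.3, moved the other way. Its level was 48.4, 46.5 and 48.0 CPM in PBS and 21.4, 21.1 and 19.8 CPM in LPS libraries, with no overlap and a log2 fold change of -1.20 ± 0.0469 (SE; adjusted p = 1.17e-13, edgeR). The count ratio of Hist1h1c to Hist1h1d within a library, which is free of scaling, was 1.64 ± 0.0641 on the log2 scale in PBS and 3.14 ± 0.0452 in LPS libraries (SD, n = 3). The remaining H1 genes fell between these: Hist1h1e, for H1.4, by 0.37, Hist1h1a, for H1.1, by 0.58 and Hist1h1b, for H1.5, by 0.73 on the log2 scale, all with no overlap of groups. Hist1h1t, the testis-specific H1, held at most 4 counts in any library and was not tested.

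Promoter sequences from RefSeq (GRCm38.p6; 250 bases before to 50 after the annotated start) were matched to 62 of the 67 members. The windows of the H1 genes at either end of the range follow, Hist1h1c at chr13:23738557-23738856 and Hist1h1d at chr13:23554782-23555081, both on the plus strand, written 5′ to 3′. The RefSeq start of Hist1h1d lies 1770 bases inside the GENCODE gene model used for its level, so its window lies within that model. Capitals mark the CCAAT box, the letters TATAAA and the octamer ATTTGCAT, each on either strand.
Hist1h1c: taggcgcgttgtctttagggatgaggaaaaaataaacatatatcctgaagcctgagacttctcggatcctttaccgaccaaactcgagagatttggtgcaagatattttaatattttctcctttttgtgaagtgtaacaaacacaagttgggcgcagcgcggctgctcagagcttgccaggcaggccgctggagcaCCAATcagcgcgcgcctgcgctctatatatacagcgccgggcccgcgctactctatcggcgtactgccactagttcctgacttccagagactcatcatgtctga
Hist1h1d: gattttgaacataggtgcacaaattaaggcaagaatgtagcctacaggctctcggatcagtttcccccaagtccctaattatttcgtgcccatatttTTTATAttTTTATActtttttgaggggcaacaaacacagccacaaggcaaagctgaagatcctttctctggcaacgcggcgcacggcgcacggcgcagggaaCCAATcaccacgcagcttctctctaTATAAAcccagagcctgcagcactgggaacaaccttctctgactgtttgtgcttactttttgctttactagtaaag
Both windows hold 1 CCAAT, shortly before the start, and neither holds the octamer. The letters TATAAA occur 3 times in the Hist1h1d window, counting both strands, but only 1 of these, near the start, lies on the strand printed. The Hist1h1c window holds no exact TATAAA. It does hold the similar letters tatatata between its CCAAT and the start, which the search did not count. CCAAT was present in the windows of all 6 H1, 18 H2A, 16 H2B and 10 H3 genes matched, but in 3 of 12 H4 genes (25%), and in 37.4% of all 32851 RefSeq promoter windows. TATAAA was present in 56.5% of member windows and 13.6% of all windows. The octamer was found in 7 of 18 H2A and 6 of 16 H2B windows and in none of the other types, for 21% of members and 1.7% of all windows. These matches describe letters in a fixed window and not factor binding, and windows of divergent neighbours overlap each other.

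All 15 tested H2A genes were lower at an adjusted p under 0.05 (all genes, 34.9%), with a median log2 fold change of -0.86. Of these, 6 were past both criteria (40.0%, against 10.4% of all genes). Hist2h2ac (chr3:96220361-96220880) had the highest H2A level per length, 69.3 RPKM in PBS and 28.1 RPKM in LPS. Its CPM was 36.9, 35.5 and 35.8 in PBS and 13.6, 15.6 and 14.8 in LPS libraries, far apart between groups. The log2 fold change was -1.30 ± 0.055 (SE; adjusted p = 3.55e-13, edgeR).

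Hist1h2ak, next in level with 46.1 RPKM in PBS and 29.8 RPKM in LPS, fell less, by 0.63 on the log2 scale. Hist1h2ag, with 76.1% of its read-length stretches also in other genes, and Hist1h2ac fell by 1.15 and 1.13. Hist1h2af stood at the other end of the type, with 4.60, 4.43 and 4.33 CPM in PBS and 3.04, 4.29 and 3.50 CPM in LPS libraries. LPS library 2 was thus just under the lowest PBS library, and the log2 fold change was -0.31 ± 0.12 (SE; adjusted p = 0.0326, edgeR); the call was lost when PBS library 1 (-0.28), PBS library 2 (-0.31), LPS library 1 (-0.20) or LPS library 3 (-0.29) was left out, and with DESeq2 (adjusted p = 0.156).

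The other H2A genes past both criteria were scarce. Hist1h2an had the lowest value of the type, -1.52 ± 0.275, with 0.987, 1.08 and 1.04 CPM in PBS and 0.209, 0.46 and 0.411 CPM in LPS libraries. Hist2h2aa2 fell by 1.11 and Hist1h2ao by 1.22, the latter with a mean of 0.469 CPM in PBS and 0.199 CPM in LPS. For Hist1h2ao the call was lost without PBS library 3 (-0.95) or LPS library 1 (-0.96), and its adjusted p was 0.0794 with DESeq2. Hist2h2aa2 was no longer past a log2 fold change of -1 without PBS library 1 (-0.97) or LPS library 1 (-0.96), and it lies wholly within an exon of Gm20632 on the opposite strand. Of the stretches of 1 read length in these genes, 83.3% in Hist1h2an, 92.6% in Hist1h2ao and 100% in Hist2h2aa2 also occur in other annotated genes, so these values are uncertain.

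H2B genes had a median log2 fold change of -0.83 over 16 tested, of which 14 were lower (87.5%, against 34.9% of all genes) and 2 did not pass. The highest levels per length were those of Hist1h2bb, 59.8 RPKM in PBS and 36.2 RPKM in LPS, and Hist1h2bn, 54.7 and 35.5 RPKM, which fell by 0.72 and 0.62 on the log2 scale. Only Hist2h2bb and Hist3h2ba passed both criteria (12.5%, near the 10.4% of all genes). Hist2h2bb had 23.5, 20.5 and 20.6 CPM in PBS and 9.98, 8.85 and 9.93 CPM in LPS libraries (log2 fold change -1.165 ± 0.0732, SE; adjusted p = 1.18e-10, edgeR), and its groups did not overlap. Hist3h2ba was scarce, with 0.504, 0.62 and 0.607 CPM in PBS and 0.119, 0.245 and 0.235 CPM in LPS libraries, for a log2 fold change of -1.52 ± 0.341.

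Hist1h2bc changed least among H2B genes. Its level was 24.0, 27.7 and 24.3 CPM in PBS and 22.8, 24.2 and 22.1 CPM in LPS libraries, so LPS library 2 lay within the PBS range. The log2 fold change of -0.14 ± 0.0606 did not pass (adjusted p = 0.0534, edgeR), whereas it passed with the batch number as a block (adjusted p = 0.0159). It also passed without PBS library 1 (-0.18), PBS library 3 (-0.17) or LPS library 2 (-0.17). Hist1h2bp, the other H2B gene that did not pass, had a log2 fold change of -0.57 ± 0.312 at 0.461 CPM in PBS, with no overlap of groups.

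H2A and H2B genes often lie head to head with one short intergenic region between them. In 12 such pairs the annotated starts were 176 to 306 bases apart, and both genes were tested in 10. In 4 pairs the partners' log2 fold changes differed by less than 0.1. Hist1h2ak and Hist1h2bn fell by 0.63 and 0.62 on the log2 scale, Hist1h2ad and Hist1h2bf by 0.86 and 0.87, Hist1h2ai and Hist1h2bl by 0.80 and 0.86, and Hist1h2ae and Hist1h2bg by 0.75 and 0.68. Over the 10 pairs the Pearson correlation between the partners' log2 fold changes was -0.26 (Spearman, -0.16). Several of these genes share sequence. The pairs Hist1h2an with Hist1h2bp and Hist1h2ao with Hist1h2bq rest on as few as 7 and 4 counts, so this correlation is uncertain.

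Hist1h2ac and Hist1h2bc, whose starts are 251 bases apart, did not fall alike. Hist1h2ac had 5.48, 5.38 and 5.76 CPM in PBS and 2.32, 2.82 and 2.47 CPM in LPS libraries, clearly separated, while its partner hardly moved. Within each library, the log2 ratio of Hist1h2ac to Hist1h2bc counts was -2.13, -2.36 and -2.08 in PBS and -3.29, -3.10 and -3.16 in LPS. The difference of means was -0.9955, larger than the SD of 0.152 in PBS and 0.0976 in LPS. The smallest two-sided p that exact permutation of 3 against 3 libraries allows is 0.1. Of their read-length stretches, 7.6% of those in Hist1h2ac and 25.3% of those in Hist1h2bc occur in genes that do not overlap them. A further 2 pairs had ratios that did not overlap between groups. Hist1h2ag to Hist1h2bj had means of -1.01 and -1.35, and Hist1h2an to Hist1h2bp 1.18 and 0.16, the latter resting on as few as 7 counts. How often the ratios of other pairs of genes separate in this way was not tested.

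**Figure D3:**
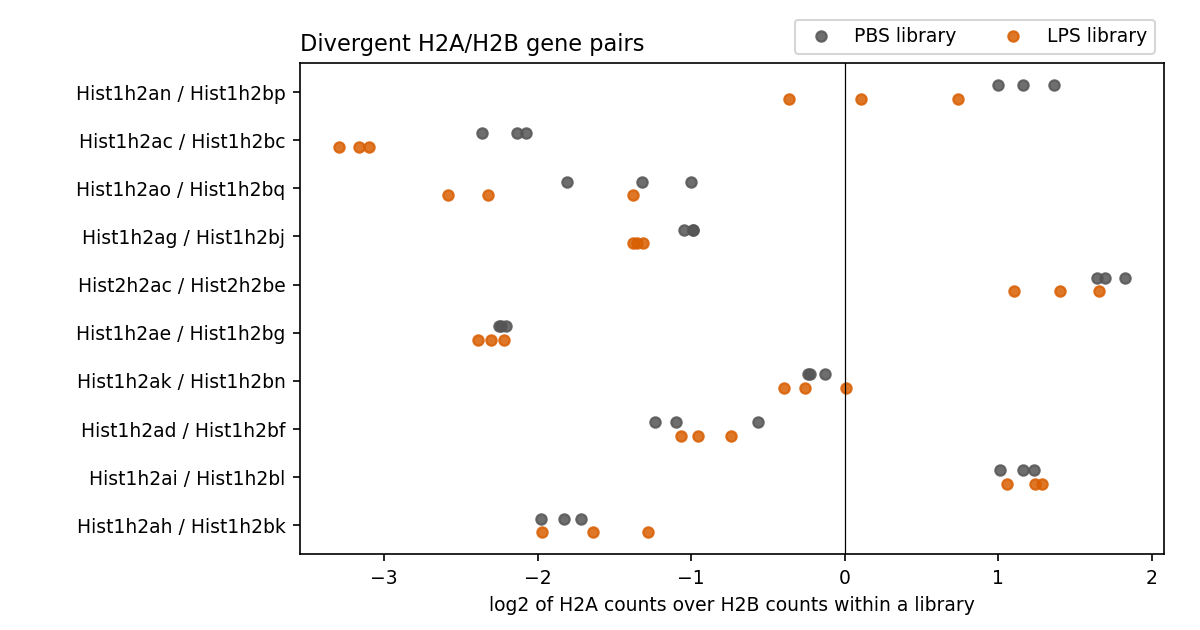
log2 ratio of H2A to H2B counts within each library for the 10 divergent pairs with both genes tested (grey, PBS; orange, LPS), ordered by the difference between group means. The ratio of Hist1h2ac to Hist1h2bc lies between -2.36 and -2.08 in PBS and between -3.29 and -3.10 in LPS libraries.

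The windows upstream of Hist1h2ac (chr13:23683910-23684209) and Hist2h2ac (chr3:96220831-96221130), both on the minus strand, span nearly all of the region shared with the partners Hist1h2bc and Hist2h2be. They are printed 5′ to 3′ in the direction of the H2A gene from RefSeq (GRCm38.p6), with the same motifs in capitals, because they show what the partners have in common.
Hist1h2ac: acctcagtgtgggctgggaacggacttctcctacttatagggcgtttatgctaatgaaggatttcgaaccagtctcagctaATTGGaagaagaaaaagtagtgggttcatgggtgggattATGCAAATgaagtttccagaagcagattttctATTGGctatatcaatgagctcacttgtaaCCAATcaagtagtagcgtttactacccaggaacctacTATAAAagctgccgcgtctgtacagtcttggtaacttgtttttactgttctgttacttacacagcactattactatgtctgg
Hist2h2ac: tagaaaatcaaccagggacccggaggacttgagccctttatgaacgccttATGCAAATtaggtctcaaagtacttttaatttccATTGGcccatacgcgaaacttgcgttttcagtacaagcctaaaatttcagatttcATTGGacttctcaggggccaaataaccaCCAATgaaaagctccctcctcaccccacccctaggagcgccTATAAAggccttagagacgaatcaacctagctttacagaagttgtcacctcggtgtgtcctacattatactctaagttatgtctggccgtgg
Each window holds 3 CCAAT matches, counting both strands, 1 octamer and 1 TATAAA near the H2A start. In the Hist2 pair, Hist2h2ac fell by 1.30 and Hist2h2be by 0.96 on the log2 scale.

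The 11 tested H3 genes had a median log2 fold change of -0.83, and 10 of them were lower (90.9%, against 34.9% of all genes). Hist2h3b (chr3:96268654-96269141) had the lowest value of all members. Its level was 5.14, 6.79 and 5.11 CPM in PBS and 1.37, 2.02 and 1.499 CPM in LPS libraries, with no overlap and a log2 fold change of -1.80 ± 0.157 (SE; adjusted p = 1.16e-08, edgeR). Of its read-length stretches 100% also occur in other annotated genes, and 77.1% in genes that do not overlap it, so this value is uncertain. Hist1h3g fell from 6.44 ± 0.2 to 2.77 ± 0.154 CPM (SD, n = 3), or by 1.22 ± 0.101 (SE) on the log2 scale.

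Most H3 genes fell by less. Hist1h3e, with the highest H3 level at 36.6 RPKM in PBS and 23.4 RPKM in LPS, fell by 0.65 and Hist1h3i, at 29.8 and 17.8 RPKM, by 0.74 on the log2 scale. Hist1h3c was highest among H3 genes in log2 fold change, -0.55. Hist2h3c2 did not pass, at -0.58 ± 0.274, with 0.672, 0.664 and 0.91 CPM in PBS and 0.358, 0.521 and 0.617 CPM in LPS libraries. Hist2h3c1, which shares sequence with it, had 0 counts in every library. It lies wholly within another annotated transcript on its strand, Gm20634. Reads there may not have been counted for Hist2h3c1, so the 0 sets no upper limit on its level.

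The 13 H4 genes were all tested, and their values ranged widely. The median log2 fold change was -0.53. In all, 11 were lower (84.6%, against 34.9% of all genes) and 2 did not pass. Of the 11, 4 were past both criteria (30.8% of H4 genes, against 10.4% of all genes). Hist1h4f and Hist1h4h had the highest levels per length, 94.5 and 87.5 RPKM in PBS and 55.7 and 61.9 RPKM in LPS, and fell by 0.76 and 0.50 on the log2 scale. Hist2h4 (chr3:96261682-96263311), at 24.9, 28.8 and 27.6 CPM in PBS and 10.4, 9.93 and 10.4 CPM in LPS libraries, fell by 1.41 ± 0.0662 (SE; adjusted p = 1.77e-12, edgeR), and the groups were far apart.

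Hist4h4 (chr6:136801553-136804415), the lone member of its cluster, had 17.8, 16.8 and 16.0 CPM in PBS and 7.90, 8.88 and 8.05 CPM in LPS libraries and fell by 1.03 ± 0.073, a size no longer past 1 without PBS library 1 (-0.99) or LPS library 1 (-0.9987). Hist1h4j fell by 1.12 ± 0.0753. Hist1h4m reached the criteria from very few counts, with a mean of 0.345 CPM in PBS and 0.161 CPM in LPS and a log2 fold change of -1.10 ± 0.43, and it lost the call without PBS library 1 (-0.98), PBS library 3 (-1.14), LPS library 1 (-1.19) or LPS library 3 (-0.70), and with DESeq2 (adjusted p = 0.181). Of its read-length stretches, 88.1% also occur in other genes.

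Hist1h4c (chr13:23697635-23698454) was at 43.5, 40.8 and 41.3 CPM in PBS and 37.4, 40.4 and 40.9 CPM in LPS libraries, so the groups overlapped, and its log2 fold change of -0.08 ± 0.0462 did not pass (adjusted p = 0.131, edgeR). Hist1h4i, at -0.15 ± 0.0977, did not pass either, although its libraries did not overlap. Hist1h4d had the same log2 fold change, -0.15, with a smaller error of 0.0516 and passed (adjusted p = 0.0169 by edgeR but 0.0538 by DESeq2) despite overlapping libraries. The log2 ratio of Hist1h4c to Hist2h4 counts within a library was 0.63 ± 0.157 in PBS and 1.95 ± 0.09 in LPS (SD, n = 3), so these H4 genes changed unequally whatever the scaling.

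**Figure D4:**
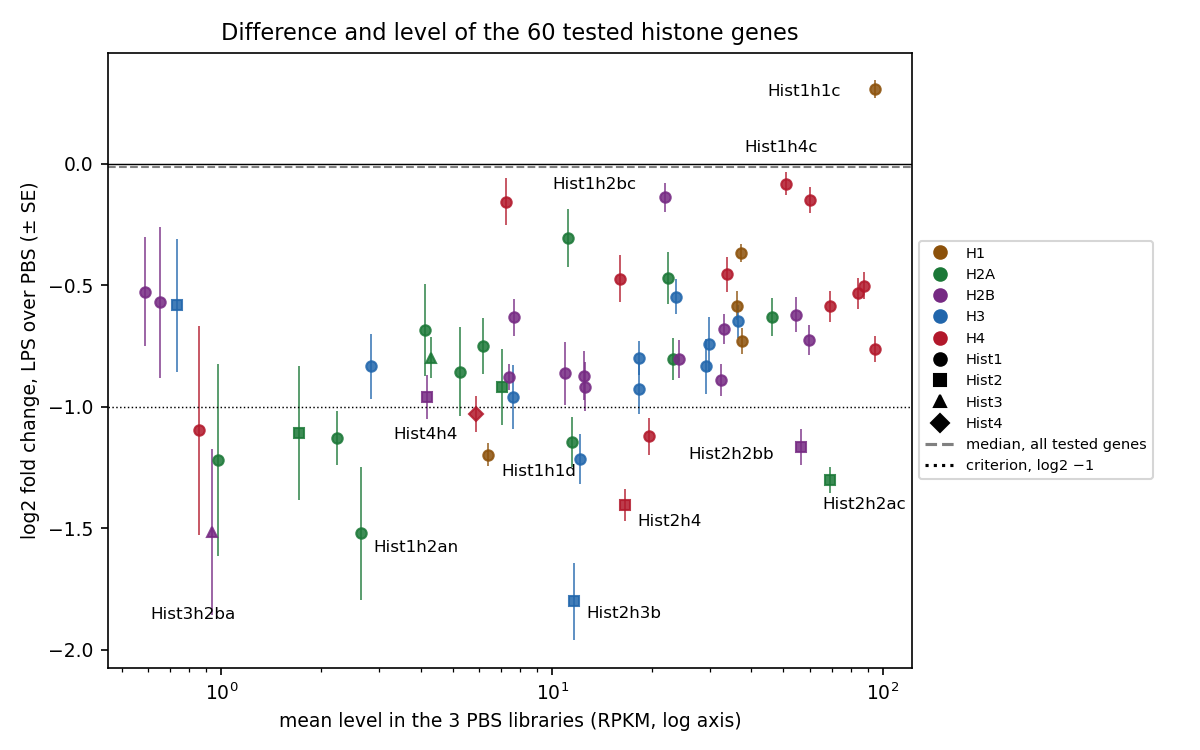
log2 fold change (LPS over PBS, ± SE) against the mean RPKM in the 3 PBS libraries (log axis) for the 60 tested members, coloured by histone type with symbols for cluster; the dashed line is the median of all tested genes and the dotted line a log2 fold change of -1. Hist1h1c is the sole member above 0 (below 0 with library size alone), and Hist2h3b is lowest at -1.80.

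The annotated transcripts of 44 of the 67 members (65.7%) hold a match to the histone stem-loop, against 3 of 21884 other protein-coding genes. These 3 were H2afx, H2bfm and Trim17, which overlaps Hist3h2a. Of the 23 members without a match, 15 are annotated with at most 5 bases after the coding sequence, so that the place of the stem-loop lies outside the model. The 7 forms found follow as DNA letters of the sense strand from the GENCODE M21 transcripts (GRCm38), with the 4-base loop in capitals and the stem in lower case, because they are the shared mark of this class of mRNA.
Form in 26 members: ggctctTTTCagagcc
Form in 7 members: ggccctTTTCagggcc
Form in 6 members: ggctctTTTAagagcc
Form in Hist1h4i and Hist2h4: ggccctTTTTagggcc
Form in Hist1h4a: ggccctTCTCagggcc
Form in Hist1h3g: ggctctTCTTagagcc
Form in Hist2h2ac: ggctctTTTTagagcc
The commonest form occurs in 3 H1, 10 H2A, 8 H2B and 5 H3 genes, and the next, with another stem, in H4 genes alone. Genes with the same 16 letters differed in response. Hist1h1c and Hist1h1d share the commonest form at log2 fold changes of 0.31 (-0.10 with library size alone) and -1.20, and Hist1h4i and Hist2h4 share another at -0.15 and -1.41. The 23 tested genes of the commonest form had a median log2 fold change of -0.86, and the 20 tested genes with no match in the model one of -0.74.

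Gene models and sequence identity bear on these values. The 44 members with a single exon and a short annotated 3′ end gave 39 tested genes. All of them were lower (all genes, 34.9%), with a median log2 fold change of -0.80. The 23 members with several exons or more than 300 annotated bases after the coding sequence gave 21 tested, with a median of -0.65. They include the exception Hist1h1c and all 5 genes that did not pass, and their RPKM is understated where the annotated length exceeds the transcript in use, as it may for Hist1h1d with 7425 annotated exonic bases. The 24 tested members with under 25% of their read-length stretches in genes that do not overlap them had a median of -0.86. The other 36 had one of -0.75. Sharing with overlapping annotations was left out of this split, so the 24 include Hist2h2bb, with 100% of its stretches in such annotations. Across the 60 tested members, log2 fold change and log2 RPKM in PBS had a Pearson r of 0.36 (Spearman, 0.39) within these same libraries.

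Other annotations lie over 24 members. Short annotations of the type miRNA, 17 in all, overlap members and held at most 12 counts in any library. Hist2h3b lies wholly inside an exon of Gm20628 on the opposite strand, and so does Hist2h2bb. Gm20628 held 30 to 35 counts in PBS and 2 to 9 in LPS libraries, while Hist2h2bb held 927 to 1117 and 289 to 338. Reads there thus appear to have been told apart by strand. On the strand of Hist2h2bb, Gm42743 covers 226 of its 381 exonic bases and held at most 2 counts. The level of Hist2h2bb may therefore be understated. The 40 tested members whose exons overlap no other gene had a median log2 fold change of -0.74, and the 20 with an overlap one of -0.87. Of the 7 members not tested, Hist1h2ap and Hist1h2br held at most 22 counts in any library, and Hist1h1t, Hist1h2ba, Hist1h2aa, Hist2h2aa1 and Hist2h3c1 at most 4. Gm20634 covers 529 of the 586 exonic bases of Hist2h2aa1 and all of Hist2h3c1 on their own strand. Low counts of Hist2h2aa1 and Hist2h3c1 therefore do not show that they were silent.

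Genes within the clusters that encode other proteins were mostly silent. Of 49 protein-coding genes that lie between members of Hist1, 5 were tested. Of these, 3 were lower (60%, against 34.9% of all genes) and 2 fell past both criteria (40%, against 10.4%). Hfe, an iron-regulating gene between Hist1h4c and Hist1h1c, had 70.5 ± 2.39 CPM in PBS and 69.4 ± 3.2 CPM in LPS (SD, n = 3; log2 fold change -0.02 ± 0.0411), and Prss16 had a log2 fold change of -0.05 ± 0.239. Neither passed. Zfp322a, a zinc finger gene, fell by 1.09 and Abt1 was lower by 0.23. Zfp184 fell by 1.92 ± 0.51 but held only 12 or 13 counts in PBS and 1 to 4 in LPS libraries. Of 109 other annotated genes between members, 5 were tested. All 5 were lower (all genes, 34.9%), and 4 fell past both criteria (80%, against 10.4%). Their median log2 fold change was -1.46. Among them, Gm20632, Gm20633 and Gm20634 overlap Hist2 members. The 2 tested histone pseudogenes, Hist3h2bb-ps and Hist1h2al, had log2 fold changes of -1.64 ± 0.276 and -0.97 ± 0.293.

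Histone variant genes outside the clusters are given for comparison. Of 10 tested, 6 were higher, 1 of them past both criteria, and 2 were lower (all genes, 32.9% higher and 34.9% lower). When scaled by library size only, 2 were higher and 7 lower (all genes, 15% higher and 65.9% lower). The balance thus turned with the scaling, and that of all genes moved the same way. Their median log2 fold change was 0.15 (-0.26 with library size alone). H3f3b, one of the genes for H3.3, went from 337 ± 3.66 to 1372 ± 7.76 CPM (SD, n = 3), a rise of 2.03 ± 0.033 on the log2 scale (SE; adjusted p = 1.82e-19, edgeR). H1f0, a linker histone of non-dividing cells, was higher by 0.63. H3f3a, the other H3.3 gene, and H2afz, for H2A.Z, were higher by 0.31 and 0.25 but had log2 fold changes of -0.0898 and -0.16 with library size alone. H2afx, whose mRNA also holds the stem-loop, was lower (-0.40), as was H2afj (-0.22).

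Of 28 tested genes for the making of histone mRNA, 15 were lower (53.6%, against 34.9% of all genes) and 3 higher (10.7%, against 32.9%). Of the 28, 4 fell past both criteria (14.3%, against 10.4% of all genes). With library size alone 25 were lower (all genes, 65.9%) and 0 higher (all genes, 15%). The median log2 fold change was -0.11. Npat, the coactivator of histone gene transcription, went from 28.6 ± 1.38 to 14.1 ± 2.04 CPM (SD, n = 3; log2 fold change -1.01 ± 0.076, SE), and its partner Casp8ap2 was lower by 0.87. Hinfp, a factor that binds H4 promoters, fell by 1.86. Lsm11, a subunit of the U7 particle that cleaves histone pre-mRNA, fell by 1.168, and Coil, for coilin, by 1.02. Slbp, which binds the stem-loop, was lower by 0.29 ± 0.0457, and Eri1, an exonuclease that trims histone mRNA, was higher by 0.45. Without PBS library 3, 2 genes of this list passed both criteria.

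Of 27 tested histone chaperones, which carry histones to DNA, 10 were lower (37.0%, against 34.9% of all genes) and 11 higher (40.7%, against 32.9% of all genes), with a median log2 fold change of 0.03. Under library size scaling the counts were 20 lower and 3 higher (all genes, 65.9% lower and 15% higher). Spty2d1 and Chaf1b, a subunit of the chromatin assembly factor CAF-1, rose by 2.47 and 1.68, while the CAF-1 subunit Chaf1a was lower (-0.79), as were Nasp (-0.49) and Asf1b (-0.29).

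Genes of S phase and replication were mostly lower, but less than the histone genes in median. Of 37 tested, 30 were lower (81.1%, against 34.9% of all genes) and 2 higher (5.41%, against 32.9%). With library size alone, 36 were lower and 0 higher (all genes, 65.9% lower and 15% higher). With TMM scaling 2 fell past both criteria (5.41%, against 10.4% of all genes), and the median log2 fold change was -0.39. Gins3, a replication helicase subunit, and Dtl fell by 2.15 and 1.16. Ccne1 and Ccne2, the cyclins of S phase entry, had log2 fold changes of -0.91 and -0.75 and the ribonucleotide reductase gene Rrm2 one of -0.38. Pcna, the replication clamp, was 0.13 higher (-0.28 when scaled by library size only, -0.0153 when scaled by upper quartiles).

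Of 18 tested genes of G2 and mitosis, 11 were lower (61.1%, against 34.9% of all genes) and 2 higher (11.1%, against 32.9% of all genes). Their median log2 fold change was -0.21. Under library size scaling 16 were lower and 2 higher (all genes, 65.9% lower and 15% higher). Mki67, a proliferation marker, went from 85.3 ± 2.72 to 702 ± 9.83 CPM (SD, n = 3), a rise of 3.04 ± 0.0367 on the log2 scale (SE; adjusted p = 1.97e-21, edgeR), while Top2a, Cdk1 and Ccnb1 had log2 fold changes of -0.13, -0.26 and -0.40. For comparison, 240 other protein-coding genes with single-exon transcripts had a median log2 fold change of -0.09, and 257 others with under 1000 exonic bases one of 0.09; both sets were chosen after values were seen. The part of cell cycle position in the histone values was not tested.

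**Figure D5:**
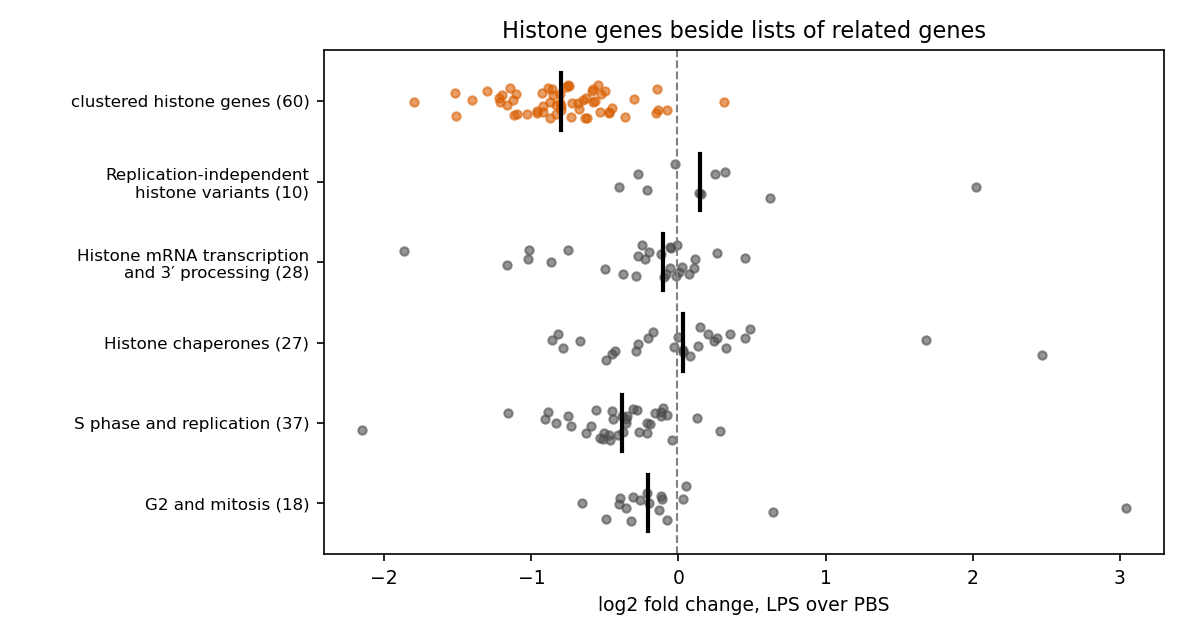
log2 fold change (LPS over PBS) of tested genes in the clustered histone set (orange) and in 5 related lists (grey), with the number tested in brackets, a black bar at each median and a dashed line at the median of all tested genes. The median is -0.80 for clustered histone genes, -0.39 for S phase genes and 0.15 for histone variants (-0.26 with library size alone, where the histone median is -1.20).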

How the data were processed

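The authors aligned paired-end reads of 101 bases to GRCm38 with HISAT2 2.1.0, used SAMtools 1.17 and counted reads per gene with featureCounts 2.0.0. The deposited values are whole-number counts per gene, not normalized. The annotation release, the strand setting and the handling of multi-mapping reads are not given in the sources used here. Counts of Hist2h2bb and Gm20628 differ although they share bases on opposite strands, so reads appear to have been counted by strand. Genes with near-identical copies or overlaps on their own strand are uncertain. Of 55335 identifiers, 55154 matched GENCODE M21 without version.

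Differences between 3 LPS and 3 PBS libraries were fitted on the whole table in R 4.3.3 with edgeR 4.0.16 (filterByExpr, TMM, quasi-likelihood test, Benjamini-Hochberg over 15687 genes). The criteria were an adjusted p under 0.05, alone or with a log2 fold change beyond 1. Standard errors came from the F statistic, and RPKM used annotated exonic length. Floors (3 counts) cover counting error only. The code was tested on simulated counts.

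Members and lists were chosen with earlier results of these data known. Named members were, per type, the 2 highest in RPKM and the ends of the log2 fold change, those past both criteria, and the Hist3 and Hist4 genes. From the lists, Slbp, Npat, H2afz, H3f3a, H3f3b, H1f0, Pcna, Mki67 and genes past both criteria were named; other named genes were chosen after their values were seen.

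The labels give same-numbered libraries 1 batch, which pairs them, but the main fit had no term for the batch. Correlations of deviations over genes were -0.0139, 0.0822 and 0.0387 for same-numbered libraries. Between libraries of different numbers they ranged from -0.0817 to 0.0446. A block for the batch was an alternative, as were DESeq2 1.42.0, limma 3.58.1 (voom), other scalings and filters, and leaving out each library. Authors' comparisons were not used.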

Additional observations from a re-analysis of the deposited data

How the results depend on the processing

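Of the 29 named members and the 8 list genes followed under every alternative, 4 changed sign, all with another scaling. Library size alone gave log2 fold changes of -0.10 for Hist1h1c, -0.16 for H2afz, -0.0898 for H3f3a and -0.28 for Pcna, and upper quartile scaling gave -0.0153 for Pcna.

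Scaling moved sizes most. With library size alone, 42 histone genes fell (15 with TMM) and 0 were higher, the histone median was -1.20, 2964 of all genes fell (1624 with TMM), and the medians were -0.26 for variants, -0.51 for mRNA processing, -0.38 for chaperones (4 fell), -0.79 for S phase (9 fell) and -0.61 for mitosis (1 fell). With upper quartile scaling, 24 histone genes fell with a median of -0.94, and the medians were 0.0023 for variants, -0.25 for processing, -0.11 for chaperones (1 fell), -0.53 for S phase (4 fell) and -0.35 for mitosis. DESeq2's size factors gave medians of 0.16 for variants and 0.0475 for chaperones, and the DESeq2 test 0.0458 for chaperones. In that test 49 histone genes were lower and 13 fell; Hist1h2ao, Hist1h4m, Hist1h2af, Hist1h4d and Hist1h2bq (adjusted p = 0.212) lost the call. With no filter beyond 1 count the medians were -0.82 for histone genes, 0.11 for variants and 0.0041 for chaperones. With 10 counts in every library, 1027 of all genes fell, and the medians were 0.13 for variants and 0.012 for chaperones. Members with under 25% of stretches shared with genes that do not overlap them were chosen after seeing the data. Of these 24, 8 fell (33.3%, against 10.4% of all genes) and 21 were lower (87.5%, against 34.9%), with a median of -0.86. Members without overlaps had a median of -0.74. The summed level as a percent of all counts gave 54.2%.

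Leaving out each library in turn, 12 to 17 histone genes fell, 50 to 55 were lower and 1 was higher, with a median of -0.81 to -0.76. Medians ranged from 0.13 to 0.15 for variants, -0.16 to -0.11 for processing (2 to 4 fell), 0.0098 to 0.0389 for chaperones, -0.42 to -0.35 for S phase and -0.26 to -0.17 for mitosis.

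With the batch number as a replicate block, 15 histone genes fell and 55 were lower, and Hist1h2bc (-0.14) was the 1 member whose call changed. The cause of these changes was not tested. Depth limits the scarce members most: 7 tested members averaged at most 30 counts per library (Hist1h4m, Hist1h2ao, Hist1h2bp, Hist3h2ba, Hist2h3c2, Hist2h2aa2 and Hist1h2an).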
